A study of Mus musculus with 14 samples.

Results

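RNA from the dentate gyrus (DG) of the mouse hippocampus was compared between tissue that had been dissociated with enzyme and tissue homogenised directly. All 4 DG libraries of the 14 in the study were used, 2 dissociated (replicates 3 and 4) and 2 control (replicates 2 and 3), and the other 10 came from the hippocampal fields CA1 and CA3. All came from wild-type C57BL/6 tissue, and by the sample sheet of the authors every library shares 1 mouse, 1 sequencing job and 1 date. Control tissue went straight into homogenisation. Dissociated tissue was digested for 75 min at room temperature with the protease mixture pronase (1 mg/ml in artificial cerebrospinal fluid). It was then shaken on a vortex mixer, spun down and broken up by trituration in the same fluid with 1% fetal bovine serum. Replicates are pieces of tissue from the same animal, so p-values reflect the spread among such pieces and not among mice.

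The dentate gyrus is the entry station of the hippocampal circuit. Its principal neurons, the granule cells, are densely packed, express the transcription factor Prox1 and send mossy fibres to CA3. The hilus beneath them holds mossy cells and many kinds of inhibitory interneuron, and glia and vessels run through all layers. Enzymatic dissociation breaks neurites and can favour some cell types over others, and the handling itself is known to induce immediate early genes in brain cells. In bulk RNA such as this, fewer cells of a type and less RNA per cell cannot be told apart.

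Depth differed greatly between the libraries. The control libraries held 1285654 estimated counts in replicate 2 and 6086605 in replicate 3. Dissociated replicate 4 held 598775 counts and dissociated replicate 3 held 65887. Levels are given below as CPM, counts scaled to a common library total with library sizes adjusted by the trimmed mean method (TMM). A single count stood for 15.6 CPM in dissociated replicate 3 and for 1.65 CPM in dissociated replicate 4. A count of 0 therefore allowed a level of up to 46.8 CPM (3 counts) in replicate 3 and 4.96 CPM in replicate 4, against 2.20 and 0.480 CPM in the control libraries. Of the 13063 genes tested, 4954 (37.9%) would have reached 3 counts in dissociated replicate 3 at the pooled control level, and 11448 (87.6%) in replicate 4. These limits cover counting error only.

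Fewer genes were detected after dissociation, both at the depth of each library and at equal depth. At least 1 count was found for 14056 and 15311 of 22485 genes in the controls, 8222 in dissociated replicate 3 and 10964 in dissociated replicate 4. At the depth of the shallowest library the expected numbers were 9676 and 9625 in the controls and 8222 and 8552 in the dissociated libraries. Both dissociated values lay below both control values on each scale, and the mean difference shrank from -5090.5 to -1263.5 genes. The 100 most abundant genes took 19.56% (95% Wilson interval 19.49 to 19.63) and 18.41% (18.38 to 18.44) of counts in control replicates 2 and 3. They took 38.3% (37.9 to 38.6) in dissociated replicate 3 and 21.2% (21.1 to 21.3) in dissociated replicate 4. For these values an exact two-sided permutation test of 2 against 2 libraries cannot give a p under 0.333, and that was the p of each (adjusted p = 0.4 over 6 values).

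The marker genes of granule cells set all 4 libraries apart from CA1 and CA3. Over 20 markers, summed levels were 1580 and 4584 CPM in control replicates 2 and 3, and 1779 and 3953 CPM in dissociated replicates 3 and 4, while the 10 CA1 and CA3 libraries ranged from 465 to 749 CPM. Prox1 stood at 105 and 351 CPM in the controls and at 109 and 265 CPM in the dissociated libraries. For granule cell, CA3 and inhibitory neuron markers the 2 control libraries differed by more than the group means did. Markers of CA3 pyramidal cells summed to 1531 CPM in control replicate 2 and 277 CPM in control replicate 3, and to 921 and 382 CPM in dissociated replicates 3 and 4. Inhibitory neuron markers summed to 1681 CPM in control replicate 2, against 418 CPM in control replicate 3, 578 CPM in dissociated replicate 3 and 269 CPM in dissociated replicate 4. CA1 markers summed to 152 and 102 CPM in the controls and to 453 CPM (29 counts) and 102 CPM in dissociated replicates 3 and 4. One library of each treatment thus had low granule cell and higher CA3 marker levels (control replicate 2, dissociated replicate 3), and one had the opposite (control replicate 3, dissociated replicate 4).

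**Figure D1:**
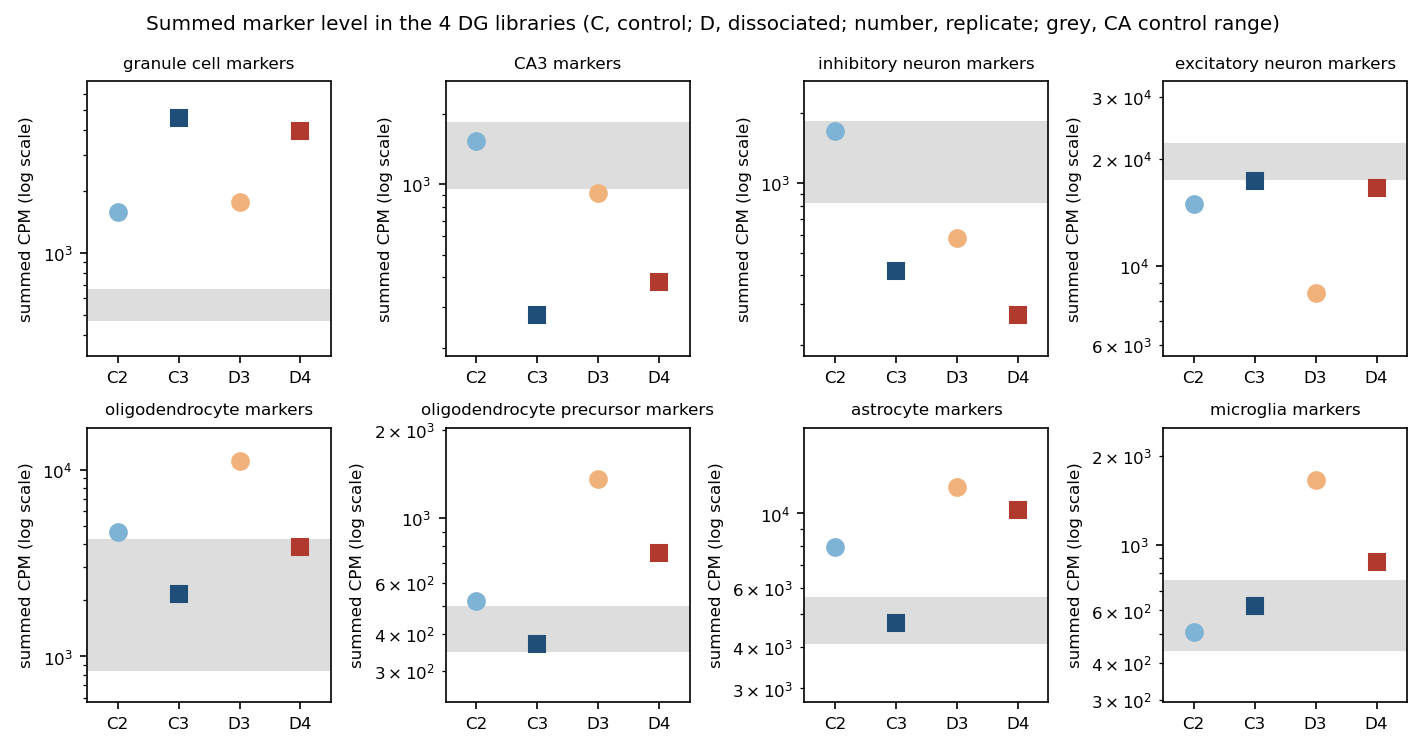
Summed CPM (log axis) of the marker genes of 8 cell types in the 4 DG libraries, with the range of the 5 CA1 and CA3 control libraries as a grey band. All 4 DG points lie above the band for granule cell markers, the control pair spans 277 to 1531 CPM for CA3 markers, and both dissociated points lie above both controls for oligodendrocyte precursor, astrocyte and microglia markers.

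Single granule cell genes showed the same split between libraries. C1ql2, a secreted synaptic organiser of the mossy fibres, stood at 152 and 548 CPM in the controls and at 187 and 546 CPM in dissociated replicates 3 and 4. Stxbp6 stood at 135 and 452 CPM in the controls and at 297 and 536 CPM after dissociation. Both genes overlapped between the groups. Per unit of transcript length (TPM), C1ql2 was the highest of the 4 leading markers in control replicate 3 at 611 TPM, above Stxbp6 at 276, Ahcyl2 at 239 and Tanc1 at 94.5 TPM, and it was again the highest in dissociated replicate 4 at 614 TPM. Of the 20 markers, 0 were called by edgeR, DESeq2 or limma-trend, 0 had an unadjusted edgeR p under 0.05, 0 had groups that did not overlap and 7 had a positive log2 fold change. Their median log2 fold change was -0.16, against -0.27 over all genes tested, and it was 0.03 with RLE scaling. The direction turned with single libraries. The median was -0.67 with 0 of 20 positive without control replicate 2 and 0.96 with 19 of 20 positive without control replicate 3. It was 0.13 without dissociated replicate 3 and -1.12 without dissociated replicate 4.

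Few genes passed the test between dissociated and control DG. With edgeR's quasi-likelihood test and Benjamini-Hochberg adjustment over 13063 genes, 21 (0.161%) had an adjusted p under 0.05, 5 higher (0.0383%) and 16 lower (0.122%) after dissociation. At an unadjusted p under 0.05 there were 403 higher (3.09%) and 1436 lower (11.0%). In 1078 genes (8.25%) both dissociated libraries exceeded both controls, and in 4207 (32.2%) both lay below. Of those 4207 genes, 2576 had a count of 0 in dissociated replicate 3, and 2840 were expected there at under 3 counts. None of the 21 was called with only the 4 DG libraries in the fit, which found 0 genes (201 higher and 540 lower at an unadjusted p under 0.05). DESeq2 called 65 higher and 39 lower, limma-trend 6 and 179.

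The 5 genes called higher were 2 actins, a synaptic scaffold, a neuropeptide receptor and a methyltransferase. Acta1 (ENSMUSG00000031972, GRCm38 chromosome 8, 123891769 to 123894751), the skeletal muscle α-actin, stood at 4.40 and 7.04 CPM in the controls, at 4355 CPM (279 counts) in dissociated replicate 3 and at 31.4 CPM (19 counts) in replicate 4. Acta2 (ENSMUSG00000035783, chromosome 19, 34241090 to 34255590), the smooth muscle α-actin of vessel walls, stood at 0.733 and 1.44 CPM in the controls, 2497 CPM (160 counts) in dissociated replicate 3 and 18.2 CPM (11 counts) in replicate 4. Both dissociated libraries lay above both controls for each gene, with replicate 3 more than 100 times as high as replicate 4. The log2 fold changes were 8.43 ± 1.34 (SE) for Acta1 and 9.82 ± 1.66 for Acta2 (edgeR adjusted p = 0.0208 and 0.0255). The 2 genes shared 0 of 1534 Acta1 words of 31 bases. In the transcript tables, Acta1 counts lay in transcript 001 in the controls and in the shorter transcript 002 in the dissociated libraries.

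Acta2 was the only called member of any of the 33 gene lists, in that of pericytes and smooth muscle, and no other gene of that list was called. The list summed to 27.2 times the control mean in dissociated replicate 3 and to 1.14 times in replicate 4. In replicate 3, 7 of its 10 genes had 0 counts, among them Rgs5, a pericyte marker at 36.6 and 31.7 CPM in the controls, for which 2.22 counts were expected there. Vtn stood at 25.7 and 13.1 CPM in the controls and at 15.6 and 14.9 CPM in the dissociated libraries. The part that vessel wall cells had in the actin counts was not tested.

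Grip2, Npffr1 and Bmt2 were expressed in the controls too. Grip2 (chromosome 6, 91761509 to 91827250), a scaffold of AMPA receptors, stood at 327 and 314 CPM in the controls, 10021 CPM in dissociated replicate 3 and 696 CPM in replicate 4. Npffr1 (chromosome 10, 61595492 to 61628565), a receptor for RFamide neuropeptides, stood at 87.2 and 61.8 CPM, then at 3684 and 352 CPM. Bmt2 (chromosome 6, 13625673 to 13677966), also known as the S-adenosylmethionine sensor of the mTORC1 pathway, stood at 63.8 and 70.4 CPM, then at 2810 and 717 CPM. The control pairs were close, and both dissociated libraries were above them with replicate 3 the higher. Log2 fold changes were 4.05 ± 0.74 for Grip2, 4.72 ± 0.87 for Npffr1 and 4.68 ± 0.85 for Bmt2 (SE, edgeR adjusted p = 0.0282 for each). None of the 5 was called without dissociated replicate 3, where the log2 fold changes were 2.39 for Acta1, 3.89 for Acta2, 1.10 for Grip2, 2.23 for Npffr1 and 3.39 for Bmt2 (edgeR adjusted p = 0.261, 0.332, 0.190, 0.118 and 0.0570). None was called without either control library either.

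**Figure D2:**
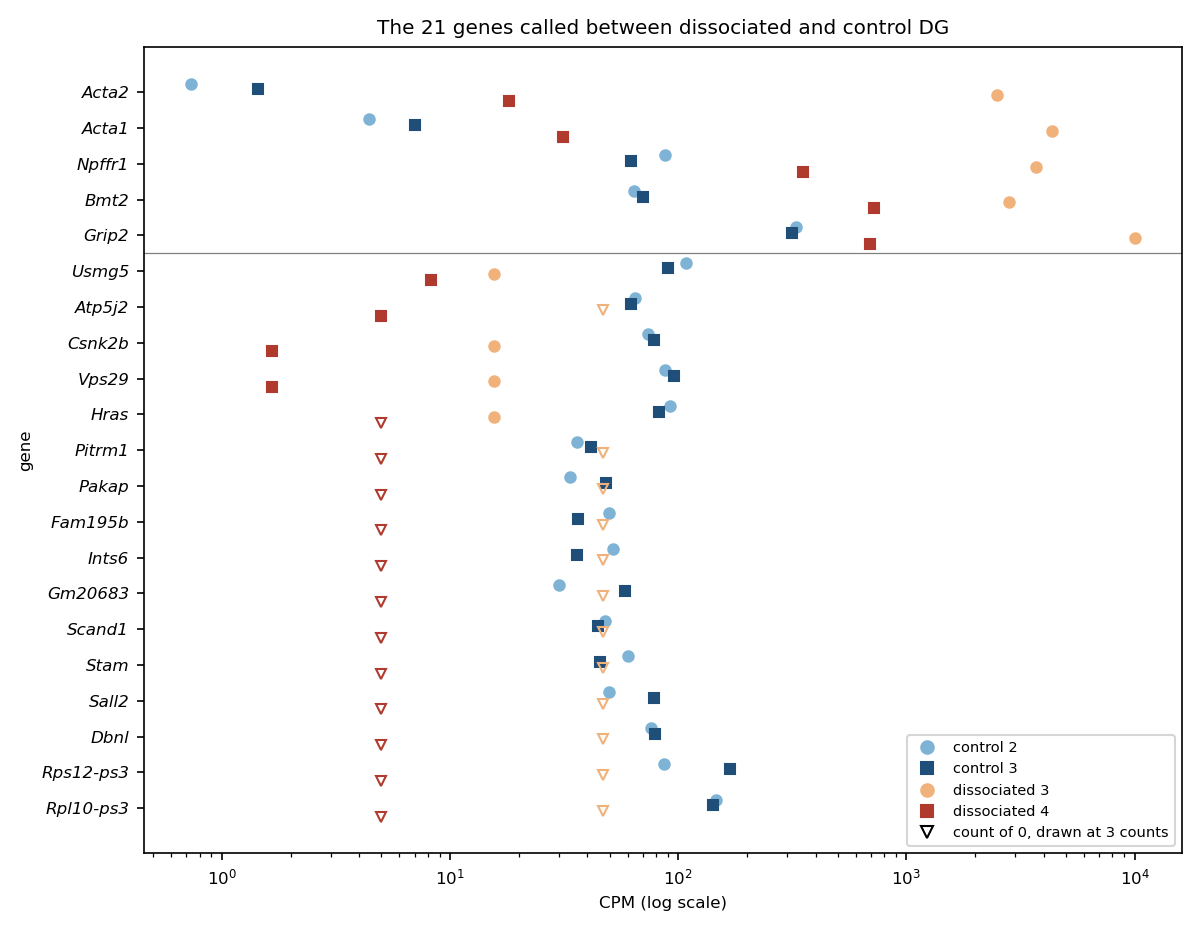
CPM (log axis) of the 21 called genes in each DG library, with counts of 0 drawn as open triangles at 3 counts (46.8 CPM in dissociated replicate 3, 4.96 CPM in dissociated replicate 4). For the genes above the line dissociated replicate 3 lies far to the right of replicate 4; of the 16 below it, 11 have no count in either dissociated library.

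The 16 genes called lower had 0 to 6 counts in both dissociated libraries together, and 11 had none. They lay between 30.1 and 169 CPM in the controls. Because the fitted fold of a gene at 0 counts depends on the model's prior, folds are given against 3 counts over the pooled dissociated counts. Rps12-ps3 (chromosome 19, 59322290 to 59322783) and Rpl10-ps3 (chromosome 9, 50344201 to 50344968), copies of ribosomal protein genes that are pseudogenes by their names, had 118 and 1054 counts and 199 and 888 counts in the controls, and 0 in both dissociated libraries. They were at least 35.2-fold and at least 32.7-fold lower (edgeR adjusted p = 0.0208 and 0.0282). Of the words of 31 bases in each copy, 89.7% also occur in Rps12 and 96.2% in Rpl10, so estimated counts can pass between copy and parent. Rps12 itself had 99 and 0 counts in control replicates 2 and 3, and 7 and 53 counts after dissociation. Copy and parent together stood at 159 and 169 CPM against 109 and 87.6 CPM for Rps12, and at 180 and 222 CPM against 78.0 and 147 CPM for Rpl10. These sums were below the controls in both libraries but far less so than the copies alone.

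The other genes at 0 had varied roles. Dbnl (chromosome 11, 5788488 to 5800962), an actin-binding adaptor of endocytosis, had 104 and 495 counts in the controls (76.2 and 79.2 CPM) and none after dissociation, at least 18.0-fold lower. Stam (chromosome 2, 14074098 to 14149634), part of the endosomal sorting machinery, stood at 60.1 and 45.5 CPM in the controls and had no count after dissociation, at least 11.0-fold lower. Sall2 (chromosome 14, 52311172 to 52328762), a zinc-finger transcription factor at 49.8 and 78.4 CPM in the controls, was at least 16.8-fold lower. Ints6 (chromosome 14, 62676330 to 62761169), a subunit of the Integrator complex at 52.0 and 36.0 CPM in the controls, was at least 8.90-fold lower, Scand1 (47.6 and 44.5 CPM) at least 10.3-fold and Fam195b (49.8 and 36.3 CPM) at least 8.87-fold. Each of these 6 had 0 counts in both dissociated libraries, with edgeR adjusted p between 0.0208 and 0.0425. Gm20683 and Pakap, at least 12.2-fold and at least 10.4-fold lower (edgeR adjusted p = 0.0485 and 0.0350), overlap other genes on their own strand (Rhbdl1 and Rhot2, and Akap2 and Palm2), so their counts are uncertain. The strand setting was not given, and Rps12-ps3, Scand1, Ints6, Vps29 and Csnk2b lie opposite other genes (Pdzd8, Cnbd2, Serpine3, Fam216a and Gpank1), whose reads cannot be told apart from theirs without strand.

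For 3 further genes 1 or 2 counts remained. Vps29 (chromosome 5, 122354369 to 122364984), a subunit of the retromer, had 119 and 596 counts in the controls and 1 in each dissociated library, a ratio of control to dissociated CPM of 32.2 (95% exact Poisson interval 8.92 to 266). Csnk2b (chromosome 17, 35116196 to 35122053), the regulatory subunit of casein kinase 2, had 101 and 488 counts against 1 and 1, a ratio of 26.6 (7.35 to 219). Hras (chromosome 7, 141189105 to 141194005), the small GTPase, had 126 and 512 counts against 1 and 0, a ratio of 57.5 (10.3 to 2272). The edgeR adjusted p was 0.0255 for Vps29 and 0.0282 for Csnk2b and Hras. The remaining 3, outside the rule for naming and named after their values were seen, were Pitrm1, a mitochondrial peptidase, and Atp5j2 and Usmg5, subunits of the mitochondrial ATP synthase.

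**Figure D3:**
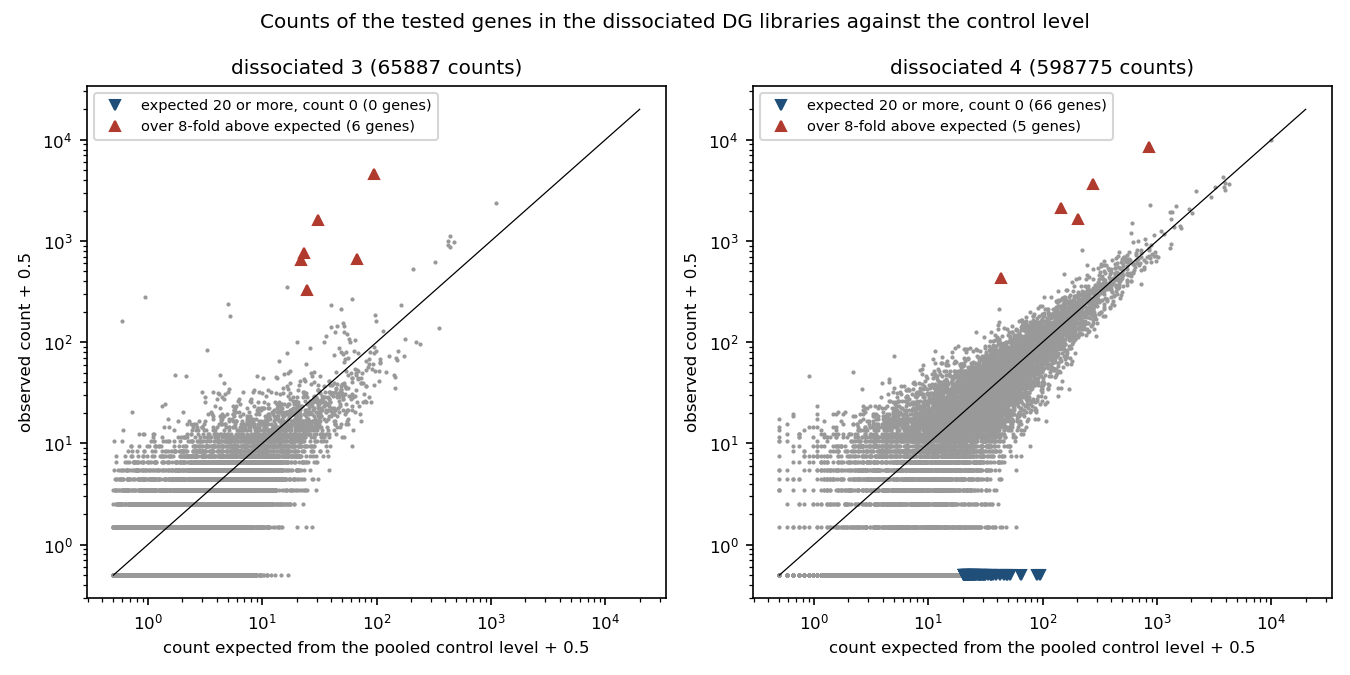
Observed count against the count expected from the pooled control level for the tested genes, 1 point a gene, in dissociated replicate 3 (left) and replicate 4 (right), both axes logarithmic after adding 0.5, with the line of equality. In replicate 4, 66 genes expected at 20 counts or more had a count of 0 and 5 lay over 8-fold above the line; in replicate 3 these numbers were 0 and 6.

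In dissociated replicate 4, the deeper of the 2, some genes expected at 20 or more counts had none. Among the 6119 genes so expected, 66 (1.08%) had none, 158 (2.58%) lay below an eighth of the expected count and 5 (0.0817%) over 8-fold above it. Each control library was set against the other control, which also had to hold at least 20 counts of the gene. For control replicate 3, set against the shallower control replicate 2, this left genes expected at well above 20 counts. A count of 0 was harder to reach there. In control replicate 2, 6 of 8644 genes (0.0694%) were at 0, 30 (0.347%) below an eighth and 5 (0.0578%) over 8-fold above. In control replicate 3, 21 of 8831 (0.238%) were at 0, 119 (1.35%) below an eighth and 6 (0.0679%) over 8-fold above. The share far above the expected count in replicate 4 was thus near that in the controls. The shares at 0 and below an eighth were higher than in control replicate 2, which had the same lower limit of 20 expected counts. They were also higher than in control replicate 3, by less, but that comparison is at unlike expected counts. Outside DG, dissociated CA3 replicate 4 had 60 of 8335 genes (0.720%) at 0 and dissociated CA1 replicate 3 had 18 of 3315 (0.543%). The shares were lower in dissociated CA3 replicate 1 (25 of 10418, 0.240%) and dissociated CA1 replicates 1 (22 of 11279, 0.195%) and 2 (1 of 1467, 0.0682%). Compared alone with the controls, and assuming that it varied like the other groups, replicate 4 gave 59 of 13974 genes lower (0.422%) and 0 higher by edgeR (499 higher at an unadjusted p under 0.05). DESeq2 called 15 genes higher and limma-trend 25. Of the 59, 44 had a count of 0 in replicate 4 and the most was 16. In dissociated replicate 3, 44 of the called genes had a count, 11 lay above both controls and 46 below both. Their median expected count there was 3.07. They were called against the same 2 controls, and the share over all genes is not given here. The 46 therefore do not show that the libraries agree.

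The genes missing from replicate 4 were in part present in replicate 3. Tomm6, a small subunit of the mitochondrial import complex, had 104 and 368 counts in the controls (76.2 and 58.9 CPM), 0 in replicate 4 and 5 counts (78.0 CPM) in replicate 3. Slc39a1, a zinc transporter, stood at 64.5 and 43.9 CPM in the controls, at 0 counts in replicate 4 and at 281 CPM (18 counts) in replicate 3. Nkiras1, which restrains NF-κB signalling, stood at 52.0 and 60.7 CPM in the controls, at 0 counts in replicate 4 and at 78.0 CPM (5 counts) in replicate 3. All 3 were called in replicate 4 alone (edgeR adjusted p = 0.0147 for each), and none in the comparison of both libraries. The genes with the smallest p among those higher in replicate 4 did not pass. Ccnd1, cyclin D1, stood at 16.1 and 19.9 CPM in the controls and 86.0 CPM in replicate 4 (62.4 CPM in replicate 3, edgeR adjusted p = 0.0561 for replicate 4 alone). Itgav, the αV integrin subunit, stood at 30.8 and 73.3 CPM in the controls and 241 CPM in replicate 4.

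Dissociated replicate 3 was dominated by a few transcripts. The 2 genes Pde6a, a phosphodiesterase subunit known from rod photoreceptors, and Igf2bp2, an mRNA-binding protein, took 9.38% of its counts (95% Wilson interval 9.16 to 9.61). They took 2.04% (2.00 to 2.07) in replicate 4, and 0.244% (0.235 to 0.252) and 0.176% (0.173 to 0.180) in the controls. Dissociated CA1 replicates 1, 2 and 3 had 0.160%, 2.05% and 2.85%, and dissociated CA3 replicates 1 and 4 had 0.304% and 0.608%. The CA1 and CA3 controls ranged from 0.0061% to 0.641%. The log2 fold changes of Pde6a and Igf2bp2 were 2.80 and 2.97 in CA1 and 1.54 and 2.37 in CA3, so the rise was not particular to DG. Pde6a, chosen after its values were seen, stood at 1780 and 1291 CPM in the controls, 71221 CPM in replicate 3 and 14165 CPM in replicate 4, and Igf2bp2 at 515 and 426, then 25270 and 5993 CPM. Neither passed (log2 fold change 4.80 ± 1.68 and 5.05 ± 1.37, SE, edgeR adjusted p = 0.216 and 0.123). Gnaz, a G protein α-subunit of neurons, stood at 469 and 301 CPM in the controls and 11831 and 2715 CPM after dissociation, and all dissociated counts lay in 1 of its 2 transcripts while the controls used both. Dpysl2, a microtubule-binding protein of axon growth, stood at 538 and 316 CPM, then 5151 and 1337 CPM. For Gnaz and Dpysl2 all dissociated values exceeded the controls, with edgeR adjusted p = 0.0607 and 0.0510.

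Alone, replicate 3 gave 35 of 13915 genes higher (0.252%) and 4 lower (0.0287%) by edgeR. The genes called higher had 12 to 758 counts, and 27 of them also lay above both controls in replicate 4. They were called against the same 2 controls, and the share over all genes is not given here. The 27 therefore do not show that the libraries agree. Tmbim1 stood at 38.8 and 41.3 CPM in the controls, 1311 CPM (84 counts) in replicate 3 and 57.9 CPM in replicate 4. Plau, the urokinase protease, and Serpine2, an inhibitor of such proteases, were the called members of the list of matrix and protease genes there. Plau stood at 14.7 and 13.1 CPM in the controls, 375 CPM in replicate 3 and 79.4 CPM in replicate 4, and Serpine2 at 119 and 56.4, then 531 and 33.1 CPM. Serpine2 was thus on opposite sides of the controls in the 2 dissociated libraries. Both were picked after their values were seen. Fto, an RNA demethylase at 174 and 183 CPM in the controls, had 0 counts in replicate 3 where about 12 were expected, and stood at 228 CPM in replicate 4.

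Glial markers tended to be higher in the dissociated libraries, but 0 members of the astrocyte, microglia, oligodendrocyte and precursor lists passed edgeR's test. At an unadjusted p under 0.05, 4 of 18, 4 of 24, 6 of 22 and 6 of 12 were higher, against 3.09% over all genes. DESeq2 called 1 member of each list but the astrocytic one, and limma-trend 0, against 65 and 6 higher among all 13063 genes. Astrocyte markers summed to 7944 and 4722 CPM in control replicates 2 and 3 and to 12003 and 10225 CPM in dissociated replicates 3 and 4. All 18 had a positive log2 fold change, 7 did not overlap between the groups with the dissociated libraries higher (8.25% over all genes), and the median was 0.60. Without control replicate 2 that median was 1.25, and without control replicate 3 it was 0.20 with 15 positive. Slc1a2, the main astrocytic glutamate transporter, stood at 1914 and 1296 CPM in the controls and 2903 and 3784 CPM after dissociation (log2 fold change 1.06 ± 0.44, SE, edgeR adjusted p = 0.296). Gfap, the astrocytic intermediate filament, stood at 249 and 250 CPM, then at 421 and 782 CPM.

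Microglial markers summed to 508 and 619 CPM in the controls and to 1654 and 878 CPM in dissociated replicates 3 and 4. Of 24 members, 18 were positive and 9 did not overlap with the dissociated libraries higher (8.25% over all genes), with a median log2 fold change of 1.03 (1.06 with genes at 0 in both dissociated libraries at their bound). Cx3cr1, the fractalkine receptor, stood at 30.8 and 37.6 CPM in the controls, 219 CPM (14 counts) in replicate 3 and 79.4 CPM (48 counts) in replicate 4 (log2 fold change 1.87 ± 0.55, SE, edgeR adjusted p = 0.148). Csf1r, the receptor of colony-stimulating factor 1, stood at 73.3 and 66.3 CPM, then at 265 and 126 CPM. In replicate 4, 4 of the 24 had 0 counts, among them Trem2 and Tyrobp. The control levels of these 2 genes, 5.86 to 11.7 CPM, lay above the 4.96 CPM that a count of 0 allowed there. Markers of blood leukocytes were at or near 0, with 12 of 12 at 0 in replicate 3 and 11 of 12 in replicate 4, and 9 and 8 of 12 at 0 in the controls.

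Oligodendrocyte markers depended on the library. They summed to 4632 and 2161 CPM in control replicates 2 and 3, 11129 CPM in dissociated replicate 3 and 3852 CPM in dissociated replicate 4, so that replicate 4 lay between the controls. Of 22 members, 19 were positive (median log2 fold change 0.95) and 7 did not overlap with the dissociated libraries higher (8.25% over all genes). The median was 0.26 without dissociated replicate 3, 1.45 without dissociated replicate 4, 0.38 without control replicate 3 and 1.82 without control replicate 2. Mbp, the myelin basic protein, stood at 1410 and 771 CPM in the controls, 4183 CPM in replicate 3 and 883 CPM in replicate 4. Markers of oligodendrocyte precursors summed to 520 and 370 CPM, then to 1358 and 757 CPM, with 9 of 12 positive and a median of 1.60. Without dissociated replicate 3 the median was 0.79 with 7 of 12 positive. It was 2.70 without dissociated replicate 4, 2.42 without control replicate 2 and 1.06 without control replicate 3. Pdgfra, the growth factor receptor of these precursors, stood at 57.9 and 26.7 CPM in the controls and 219 and 77.7 CPM after dissociation. Olig2, a transcription factor of the lineage, stood at 25.7 and 9.93 CPM, then at 156 (10 counts) and 49.6 CPM. Gpr17, also on the precursor list, went the other way in replicate 4. It stood at 43.2 and 12.5 CPM in the controls, 0 counts in replicate 3 and 6.61 CPM in replicate 4. Olig2 and Sox10 are on both the oligodendrocyte and the precursor list, so the 2 lists are not separate.

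**Figure D4:**
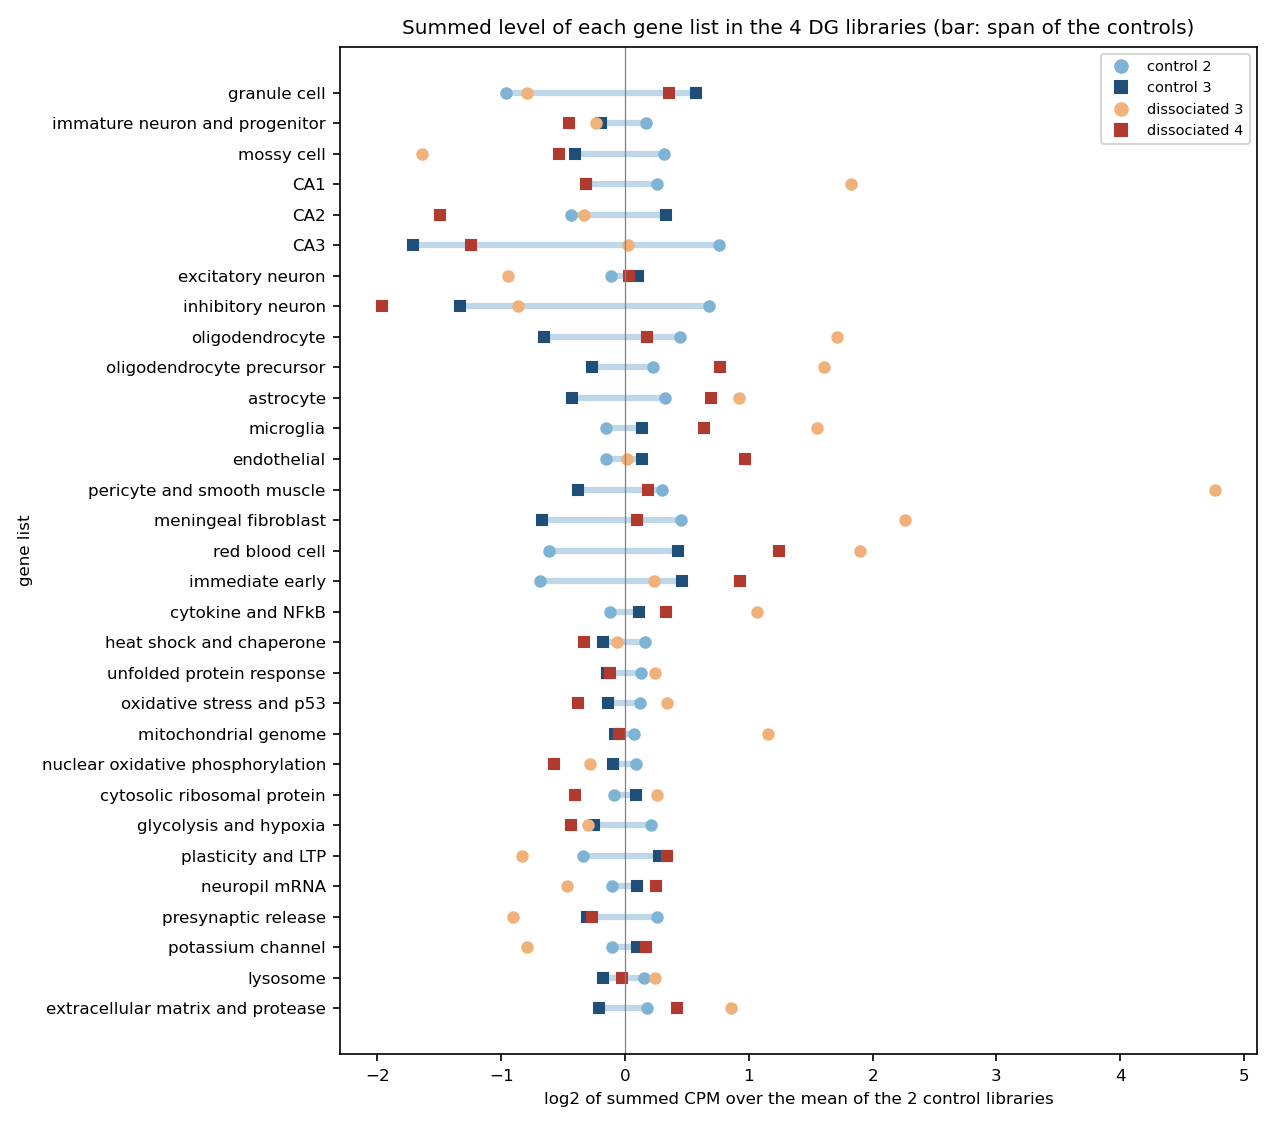
Log2 ratio of the summed CPM of each gene list to the mean of the 2 control libraries, 1 point a library, with the span of the controls as a bar. Both dissociated points lie to the right of the bar for the oligodendrocyte precursor, astrocyte, microglia, red blood cell, cytokine, and matrix and protease lists. The control span is widest for CA3 and inhibitory neuron markers.

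Inhibitory neuron genes were lower on balance, with the 2 controls far apart. Of 16 members 2 were positive, 7 had an unadjusted edgeR p under 0.05 on the lower side (11.0% over all genes) and 0 were called. Without overlap on the lower side were 5 of 16, near the share over all genes (32.2%). The median log2 fold change was -2.73 (-2.48 with the 4 genes at 0 in both dissociated libraries at their bound). Sst, the peptide somatostatin of hilar interneurons, stood at 207 CPM in control replicate 2 and 3.84 CPM in control replicate 3, then at 15.6 CPM (1 count) and 1.65 CPM (1 count). Cck, the peptide cholecystokinin, stood at 471 and 49.8 CPM, then at 219 and 14.9 CPM. Gad1, the main enzyme of GABA synthesis, was more even, at 241 and 285 CPM in the controls and 109 and 238 CPM after dissociation. Without control replicate 2 the median of the list was -0.12, and without control replicate 3 it was -3.75. The median of the CA3 list was -0.93 with 3 of 10 positive, and 1.11 with 10 of 10 positive without control replicate 2. DESeq2 and limma-trend each called 1 inhibitory neuron gene lower, against 39 and 179 lower among all 13063 genes.

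Neuronal genes common to excitatory cells were, in their sum, close to the controls in replicate 4 and lower in replicate 3. The excitatory neuron list summed to 1.02 times the control mean in replicate 4 and 0.52 times in replicate 3, and the presynaptic release list to 0.83 and 0.54 times. By gene, the excitatory list had a median log2 fold change of -0.25 in replicate 4 alone, with 6 of 18 positive. Over all genes in that comparison the median was -0.36. Slc17a7, the vesicular glutamate transporter, stood at 2390 and 1334 CPM in the controls and 812 and 1164 CPM after dissociation (log2 fold change -0.90 ± 0.43, SE, edgeR adjusted p = 0.359). Snap25, of the vesicle fusion complex, stood at 2170 and 1045 CPM, then at 937 and 866 CPM. Camk2a, the dendritic kinase of plasticity, overlapped at 1882 and 3878 CPM in the controls and 1498 and 5198 CPM after dissociation. In the presynaptic list 6 of 20 did not overlap on the lower side (32.2% over all genes), and in the plasticity list 6 of 40. The medians were -0.45 for presynaptic and -0.08 for plasticity genes, the latter 0.10 with RLE scaling.

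Immediate early genes, the first transcripts to appear after activity or stress, differed more between the 2 controls than between the group means. The list of 40 summed to 4241 and 9439 CPM in control replicates 2 and 3 and to 8038 and 13030 CPM in dissociated replicates 3 and 4. Of its members 32 were positive, 12 did not overlap with the dissociated libraries higher (8.25% over all genes), 3 had an unadjusted p under 0.05 on that side (3.09% over all genes) and 0 were called by edgeR, DESeq2 or limma-trend. The median log2 fold change was 0.67, and it was 0.79 in replicate 4 alone and -0.12 in replicate 3 alone, 0.32 without control replicate 2 and 1.27 without control replicate 3. Fos stood at 505 and 858 CPM in the controls and 1233 and 1091 CPM after dissociation, and Fosb at 318 and 841, then 1186 and 1286 CPM (edgeR adjusted p = 0.376 and 0.354). Npas4, a factor induced by neuronal activity, overlapped at 30.1 and 591 CPM against 156 and 891 CPM.

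In the other response lists edgeR, DESeq2 and limma-trend called 0 members. At an unadjusted edgeR p under 0.05, 2 of 18 cytokine genes were higher (3.09% over all genes). Lower at that threshold were 1 of 17 genes of the unfolded protein response and 2 of 17 of oxidative stress and p53 (11.0% over all genes). Cytokine and NF-κB genes summed to 405 and 475 CPM in the controls and 921 and 552 CPM after dissociation, with 13 of 18 tested positive. Socs3, an inhibitor of cytokine receptors, stood at 41.0 and 52.8 CPM in the controls and 187 and 109 CPM after dissociation (edgeR adjusted p = 0.218). Heat shock and chaperone genes had a median log2 fold change of -0.32, close to that of all genes, and Hspa8 stood at 1580 and 1226 CPM in the controls and 1249 and 1022 CPM after dissociation. Genes of the unfolded protein response had a median of 0.08 and those of oxidative stress and p53 a median of -0.19.

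Genes of the extracellular matrix and its proteases summed to 2744 and 2097 CPM in the controls and 4386 and 3245 CPM after dissociation. Of 20 tested, 13 were positive (median log2 fold change 0.63), 6 did not overlap with the dissociated libraries higher (8.25% over all genes) and 0 were called by edgeR. On that side 4 had an unadjusted edgeR p under 0.05 (3.09% over all genes) and DESeq2 called 1 (65 of 13063 over all genes). On these 20 genes the median was 0.22 without dissociated replicate 3 and 0.42 without dissociated replicate 4. With the filter rerun in each of these fits 22 genes were tested, with medians of -0.18 and 0.37. Ncan, the proteoglycan neurocan, stood at 191 and 220 CPM in the controls and 546 and 412 CPM after dissociation (edgeR adjusted p = 0.219). Red blood cell genes summed to 60.1 and 124 CPM in the controls and to 343 CPM (22 counts) and 218 CPM after dissociation. Endothelial markers summed to 180 and 221 CPM, then to 203 CPM (13 counts) and 392 CPM, and Slc2a1, the glucose transporter of the blood-brain barrier, stood at 51.3 and 66.4 CPM, then at 78.0 and 187 CPM.

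Markers of the rarer DG neurons summed to less in both dissociated libraries than in the controls, on few counts in replicate 3. Markers of immature neurons and progenitors summed to 888 and 689 CPM in the controls and 671 and 575 CPM after dissociation, with 43 counts in replicate 3. Mossy cell markers summed to 423 and 257 CPM, then to 109 CPM (7 counts) and 235 CPM. Of the 8 tested, limma-trend called 1 lower, against 179 among all 13063 genes, and edgeR and DESeq2 called 0. Of the tested members, 4 of 16 immature neuron and 1 of 8 mossy cell genes had a positive log2 fold change. Below both controls were 5 of 16 and 3 of 8, against 32.2% over all genes. Calb2, the calretinin of mossy cells and immature neurons, stood at 68.9 and 0.800 CPM in the controls. It stood at 15.6 CPM (1 count) in replicate 3 and had 0 counts in replicate 4, so the groups overlapped. Sv2c of the mossy cell list overlapped too, at 21.3 and 120 CPM, then 31.2 and 131 CPM. Glycolytic genes summed to 11150 and 8128 CPM in the controls and 7820 and 7132 CPM after dissociation, with 9 of 25 below both controls, which is near the share over all genes (32.2%). Aldoa, an aldolase, stood at 1808 and 1534 CPM, then at 983 and 1165 CPM (edgeR adjusted p = 0.430). Lysosomal genes overlapped, at 3521 and 2795 CPM against 3730 and 3113 CPM.

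The mitochondrial genome took more counts than in the controls in dissociated replicate 3 but not in replicate 4, while nuclear genes of oxidative phosphorylation were below the controls in both. The 13 protein-coding mitochondrial genes took 7.06% (95% Wilson interval 7.02 to 7.10) and 6.14% (6.12 to 6.16) of counts in the controls. They took 13.69% (13.43 to 13.96) in dissociated replicate 3 and 6.18% (6.12 to 6.24) in replicate 4. All 13 had a positive log2 fold change and 4 did not overlap with the dissociated libraries higher (8.25% over all genes). By edgeR 0 were called (1 at an unadjusted p under 0.05, against 3.09% over all genes). DESeq2 called 1 higher, against 65 of 13063 over all genes. The median was 0.70, and -0.11 in replicate 4 alone. Mt-Co1, a subunit of cytochrome oxidase, stood at 16647 and 16117 CPM in the controls, 36695 CPM in replicate 3 and 16512 CPM in replicate 4. Mt-Nd6, the gene on the other strand of that genome, stood at 717 and 737 CPM, then at 2419 and 1164 CPM.

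**Figure D5:**
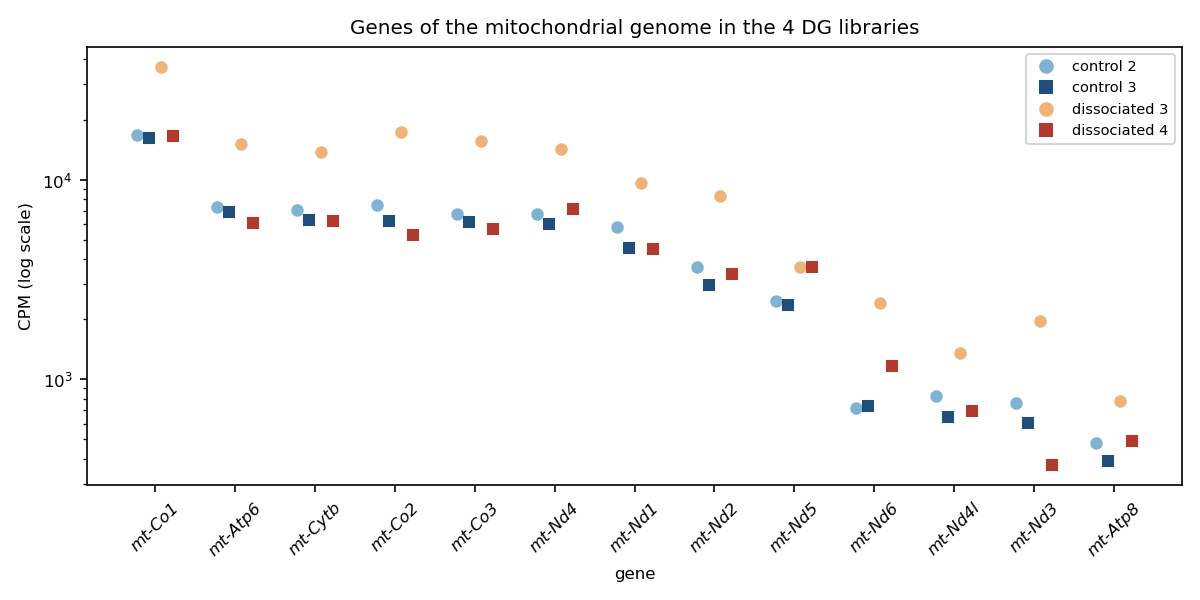
CPM (log axis) of the 13 protein-coding genes of the mitochondrial genome in the 4 DG libraries, 1 point a library. Dissociated replicate 3 lies above both controls for every gene, while replicate 4 lies among or near them, except for mt-Nd5 and mt-Nd6 above and mt-Nd3 below.

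Nuclear genes of oxidative phosphorylation summed to 5434 and 4791 CPM in the controls and 4214 and 3435 CPM after dissociation. Of 32 members 4 were positive, 18 did not overlap on the lower side (32.2% over all genes), 6 had an unadjusted p under 0.05 on that side (11.0% over all genes) and 0 were called by edgeR, DESeq2 or limma-trend, with a median of -0.46. Atp5b, of the ATP synthase, stood at 966 and 866 CPM in the controls and 687 and 675 CPM after dissociation. In replicate 4 alone Ndufa2, of complex I, was called, with 62 and 224 counts in the controls, 0 in replicate 4 and 4 in replicate 3 (edgeR adjusted p = 0.0266). Cytosolic ribosomal protein genes, 77 in all, summed to 13442 and 15213 CPM in the controls, 17138 CPM in replicate 3 and 10810 CPM in replicate 4. Their median was -0.23, and 27 of 77 did not overlap on the lower side.

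The treatment effect in DG was then tested against the mean of the effects in CA1 and CA3, where dissociated and control tissue were compared in the same way. By edgeR 1 of 13063 genes (0.00766%) differed, and 361 (2.76%) with a more positive and 1336 (10.2%) with a more negative effect in DG had an unadjusted p under 0.05. DESeq2 called 27 and limma-trend 36. That gene was Rps12-ps3, with a log2 fold change of 0.77 in CA1 and 0.54 in CA3 and a difference of -11.87 ± 1.72 (SE, adjusted p = 0.0198), which is a fitted value and no bound because DG has 0 counts. In CA1 itself 25 genes (0.191%) were called higher. The CA1 effects of the called genes Acta1, Acta2 and Grip2 were -0.09, -3.25 and 1.02, and their CA3 effects -0.82, 1.01 and 0.07. Their differences from DG did not pass (edgeR adjusted p = 0.0524, 0.121 and 0.121). Dbnl, at 0 counts in both dissociated DG libraries, had log2 fold changes of 0.04 in CA1 and -0.34 in CA3 (adjusted p of the difference 0.0524, edgeR). Of the members of the 4 glial lists 0 were called by edgeR in this test. At an unadjusted p under 0.05, 4 of 22 oligodendrocyte, 3 of 12 precursor, 5 of 24 microglia and 0 of 18 astrocyte genes had a more negative effect in DG, against 10.2% over all genes, and 0 of any of these lists a more positive one. The DG effect was the more positive in 2 of 22 oligodendrocyte and 4 of 24 microglia genes (median differences -1.29 and -1.02), in 7 of 12 precursor genes (0.40) and in 11 of 18 astrocyte genes (0.15). The median over all genes was -0.28. In CA1 itself 7 oligodendrocyte and 8 microglia genes were called higher.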

How the data were processed

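Members and gene lists were chosen with earlier results of these data known. Per the submitters' processing notes the tools were FastQC, cutadapt, kallisto and DESeq2, with no version. The build, the annotation and the strand setting: not given in the sources used here. In the gene table deposited by the authors, 22485 symbols have estimated counts, the authors' transcript estimates summed by symbol and rounded (each within 0.5 of that sum). The authors' transcript tables also hold TPM, per the file headers. The deposited sample table gives other values (mouse, job and date).

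Tests on these counts used edgeR 4.0.16 (R 4.3.3) with filterByExpr (minimum count 10, total 15), TMM, 1 mean for each of 6 groups over 14 libraries, quasi-likelihood F test, Benjamini-Hochberg adjustment, threshold 0.05. The method was also run on simulated data, and the outcome is not given here. Each dissociated DG library was also compared alone. Alternatives were RLE and upper-quartile scaling, other filters, DESeq2 1.42.0, limma 3.58.1 (prior count 2), a replicate block and libraries left out. Expected counts in a library are the pooled control level times its total (for a control, the level in the region's other controls). Folds against 0 use 3 pooled counts over total counts, with exact 95% Poisson intervals at 1 to 3 counts. Coordinates and overlaps are from GENCODE M21 (GRCm38), which held all 179 named genes. Levels are CPM on TMM-scaled library sizes.

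Named genes were all called genes if 20 or fewer, otherwise the 10 highest and 10 lowest with a mean of at least 20 CPM in DG. The 10 smallest p in each direction among genes without overlap were added, then the 8 smallest for each single library (at least 100 CPM for replicate 3), the 6 smallest for the difference from CA1 and CA3, up to 4 leading members of each of 33 lists and the 13 mitochondrial genes.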

Additional observations from a re-analysis of the deposited data

Results flagged for a closer look

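The treatment effect of Rps12-ps3, the processed copy of a ribosomal protein gene, differed between DG and the other fields by -11.87 on the log2 scale (edgeR quasi-likelihood test of the difference, adjusted p = 0.0198). It was marked because the same contrast gave different effects in different regions. The copy had 118 and 1054 counts in the DG controls and 0 in both dissociated DG libraries. Its parent Rps12 had 99 and 0 counts in the controls and 7 and 53 after dissociation. The -11.87 is a fitted value and no bound, because the copy had 0 counts in dissociated DG. Of the sequence words of the copy, 89.7% also occur in Rps12, so estimated counts can pass between copy and parent. Copy and parent together stood at 159 and 169 CPM in the DG controls and at 109 and 87.6 CPM after dissociation. Whether the effect on this sum differed between DG and the other fields was not tested.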

How the results depend on the processing

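Calls in both dissociated libraries against both controls depended strongly on the processing; the cause was not tested. With only the 4 DG libraries in the fit, 0 genes were higher and 0 lower, and likewise when only genes averaging 50 CPM or more were tested (207 higher and 251 lower at an unadjusted p under 0.05). RLE scaling left 10 lower and moved the median of all genes from -0.27 to -0.09. Testing every gene with at least 1 count gave 61 higher and 200 lower, DESeq2 65 and 39, and limma-trend 179 lower. Leaving out 1 DG library gave 0 to 35 higher and 1 to 59 lower. Without the 3 dissociated libraries under 500000 counts, a choice made after seeing the data, 37 were higher and 395 lower.

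The replicate block gave 6 higher and 3 lower genes. The 2 DG groups share 1 replicate number, so the block rests on numbers shared across regions, and nothing in the labels says that these pair samples.

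For replicate 4 alone, 3 genes were higher with RLE, 71 (and 496 lower) with every gene of at least 1 count, 15 with DESeq2 and 25 (441 lower) with limma-trend, and 12 lower at 50 CPM or more. Leaving out 1 control gave 0 to 16 higher and 14 to 177 lower. For replicate 3 alone, higher and lower genes were 63 and 2 with RLE, 133 and 23 with every gene, 61 and 7 at 50 CPM or more, 246 and 2 with DESeq2, and 417 and 2878 with limma-trend. The difference from CA1 and CA3 gave 191 genes with every gene, 27 with DESeq2, 36 with limma-trend and 1 to 55 with 1 DG library left out. The difference in genes detected was -1263.5 at equal depth. The 21 called genes kept their direction in every alternative that tested them. Among all named genes, most of them not called, 80 of 178 changed sign in at least 1 alternative. The medians of 17 of the 33 gene lists changed sign when 1 DG library was left out. The filter was rerun in each of these fits, so the tested members of some lists differed.

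At 65887 counts, 8109 of the 13063 tested genes were expected at under 3 counts in dissociated replicate 3.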
